A study of Mus musculus with 4 samples.

Results

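The 67 genes described here encode proteins of the mouse cytosolic ribosome or their close paralogs. They were selected by symbol: every gene whose symbol in the array's probe annotation begins with Rpl or Rps and goes on with a number and at most a short suffix, together with Rplp0, Rplp1, Rplp2 and Rpsa, and without the Rps6ka and Rps6kb kinases. They are 67 of 22180 genes with at least 1 feature, a group of probes read as a unit, that is annotated to a single symbol. The symbol rule itself uses no measured value, although the family was picked with earlier results of these data known. Each gene was read from its brightest feature by the mean of the 4 arrays. The set holds 23 genes of the small subunit, 32 of the large subunit, the 3 genes of the P stalk and 9 paralogs or like-named copies.

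RNA was measured on 4 single-colour Affymetrix whole-transcript arrays of bone marrow derived macrophages, phagocytes grown from mouse marrow. Cells of both genotypes grew for 6 days with L-cell supernatant and then received LPS, an outer membrane component of Gram-negative bacteria, at 100 ng/ml for 2 hours. The 2 control arrays came from PP2ACα fl/fl cells, in which exon 1 is floxed. The 2 knockout arrays came from PP2ACα fl/fl;lyM-Cre cells, in which Cre removes that exon in myeloid cells. Both genotypes thus carried floxed alleles and LPS, and Cre was present only in the knockout, so that loss of the gene and presence of Cre cannot be told apart. The labels name no strain, age or sex, and call the samples of a genotype biological replicates; whether each was a mouse of its own is not stated, so the p-values below measure the spread between these samples.

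Levels are log2 values as deposited, made by robust multi-array averaging (RMA), and a difference is the knockout mean minus the control mean on that scale. RMA equalises the arrays, so a change of total RNA per cell does not show in these values, and fewer cells of a type and less RNA per cell cannot be told apart in bulk RNA. The targeted gene, Ppp2ca, read 8.25 and 7.59 in the control arrays and 4.36 and 3.39 in the knockout arrays, a difference of -4.04 (SE 0.36, limma Benjamini-Hochberg adjusted p = 0.00759). All 10 measured macrophage markers passed the filter on low values, with mean levels between 8.27 and 11.9, and 2 of the 10 were called. Fcgr1, a receptor for antibodies, was higher in the knockout by 0.94 (limma adjusted p = 0.0162), and Adgre1 read higher in both knockouts by 0.32 without passing (limma adjusted p = 0.0885). Lyz2, at whose locus myeloid Cre lines are commonly built, was lower by the largest amount of any tested gene, with a difference of -5.19 (limma adjusted p = 0.000945). Mean levels of the neutrophil, dendritic, T and NK, B, fibroblast and erythroid marker lists lay between 2.95 and 4.30 on every array, and none of their tested members was called. Of 5 proliferation genes, 4 were called lower in the knockout, and their mean level was 7.17 and 7.10 in the controls against 6.51 and 6.38 in the knockouts. The part of proliferation in the differences below was not tested.

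Ribosomal proteins are assembled with ribosomal RNA in the nucleolus, the small subunit to decode messenger RNA and the large subunit to join amino acids. Their messengers are among the most abundant in growing cells, and most carry a terminal oligopyrimidine tract at the 5′ end, through which mTOR and Larp1 control their translation. PP2A is a serine/threonine phosphatase that acts on many kinases and their substrates, among them S6 kinase, which phosphorylates the small subunit protein Rps6.

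Ribosomal protein genes are known for a pyrimidine-rich start of transcription, called the TCT initiator, and it is shown here because the choice of genes did not use it. RefSeq promoters of the mouse build GRCm38.p6 were at hand for 52 of the 67 genes. A TCT-like match was CTTT with a pyrimidine, C or T, directly before it and another directly after it, on the gene's own strand within 50 bases either side of an annotated start. It was present in 30 of 52 genes (57.7%), against 15.3% of the 27025 genes in the table. On the opposite strand the same letters occurred in 7 of the 52 (13.5%), close to the 14.9% of all genes. Within 15 bases either side of the start, 16 of the 52 (30.8%) held a match, against 4.79% of all genes. The ETS-like motif CCGGAAG, searched on both strands within 50 bases, occurred in 12 of the 52 (23.1%) and in 5.98% of all genes, and its matches overlapped a TCT-like match in 0 of the 52 genes and in 3 genes of the whole table. Below are the 30 bases around an annotated start of 8 genes, 5′ to 3′ on the gene's strand, with TCT-like matches in capitals. They are the only called gene (Rpl10a), the gene with the largest difference (Rpl37), a pair with lower values in both knockout arrays (Rpl13, Rps10), 2 genes with repeated matches (Rpl35, Rpl7a), the S6 kinase substrate (Rps6) and a gene with nearly equal values in all arrays (Rpl4).
Rpl10a: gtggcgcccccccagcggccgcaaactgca
Rpl37: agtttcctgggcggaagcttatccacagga
Rpl13: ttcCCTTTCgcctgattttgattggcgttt
Rps10: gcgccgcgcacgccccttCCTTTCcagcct
Rpl35: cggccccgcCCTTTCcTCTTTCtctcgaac
Rpl7a: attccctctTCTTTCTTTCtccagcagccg
Rps6: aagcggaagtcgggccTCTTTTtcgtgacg
Rpl4: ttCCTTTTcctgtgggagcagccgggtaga
On GRCm38.p6 these are chr17:28328456-28328485 on the plus strand for Rpl10a, chr15:5116598-5116627 on the plus strand for Rpl37, chr8:123102335-123102364 on the plus strand for Rpl13 and chr17:27635230-27635259 on the minus strand for Rps10. Rpl35 is at chr2:39005117-39005146 on the minus strand, Rpl7a at chr2:26910792-26910821 on the plus strand, Rps6 at chr4:86857353-86857382 on the minus strand and Rpl4 at chr9:64173372-64173401 on the plus strand. Rpl10a has a second annotated start, whose stretch at chr17:28328550-28328579 also holds no match. Each stretch spans the end of the promoter and the first transcribed bases. Rpl35 holds 2 separate matches and Rpl7a 2 that overlap, while the stretches of Rpl10a and Rpl37 hold none. A match is a description of letters and not evidence of binding. Split by motif, the median difference described below was -0.24 in the 26 tested genes with a TCT-like match and -0.20 in the 18 without, and -0.18 in the 12 with an ETS-like match against -0.23 in the 32 without.

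The comparison of knockout with control asked whether loss of PP2ACα in stimulated macrophages went with a change in these messengers. The cytosolic ribosomal protein genes read lower in the knockout by small amounts, and 1 of them, Rpl10a, passed the test. Of the 67 genes, 59 had a mean of at least 3.53, the median over all features, and were tested. Among the 12542 genes tested, 6.79% were called at a limma Benjamini-Hochberg adjusted p under 0.05, with 3.49% lower and 3.3% higher. Of the 59, 1 was called lower (1.69%) and 0 higher by limma, and 14 had an unadjusted limma p under 0.05. The share called was therefore below that of all genes. In simulated arrays, 2 against 2, 200 of 12542 genes were given a change. There the same fit called 0% of 1.2-fold changes, 8.7% of 1.5-fold changes and 76.7% of 2-fold changes. The data gave 852 calls, more than the genes changed in the simulation, so the adjusted threshold was less strict in the data. The simulated shares can therefore understate what the fit could call here, although small changes can still be missed. A low share called is thus no measure of how many genes of the family changed by small amounts.

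The direction of the differences was less even. The difference was below 0 in 51 of the 59 genes (86.4%), against 48.7% of all tested genes, and its median was -0.19, against 0.0075 over all tested genes. It ran from -0.92 in Rpl37 to 0.23 in Rps23. Both knockout arrays lay below both control arrays in 32 of the 59 genes (54.2%), against a background of 26.5%, and above both in 2 (3.39%), Rps23 and Rps4l, against 28.8%. These genes share arrays and are not independent of one another, so the counts are a description.

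**Figure D1:**
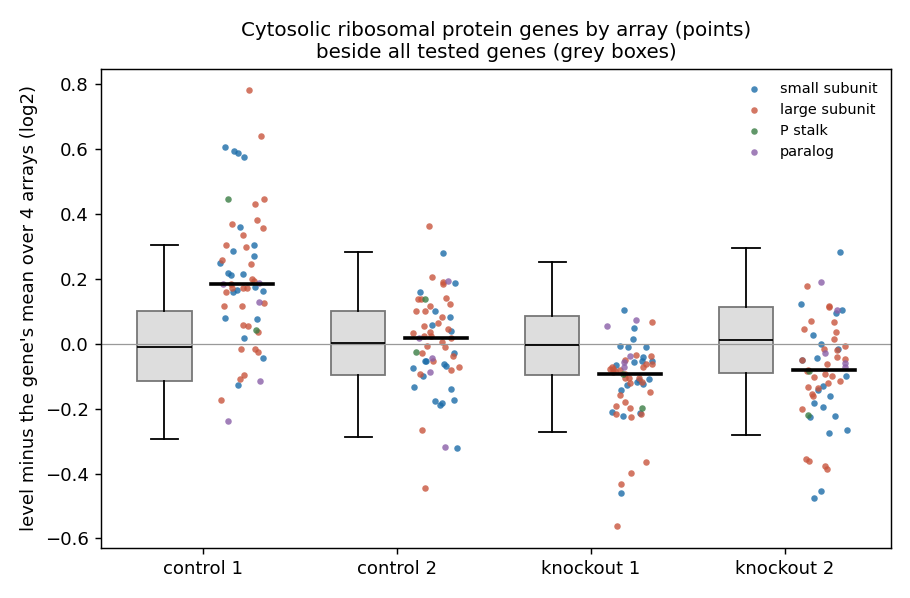
Level of each of the 59 tested ribosomal protein genes on each array minus that gene's mean over the 4 arrays, in log2 units (y axis), by array (x axis). Black bars are medians of the points. Grey boxes give the median and quartiles of all 12542 tested genes, with whiskers that leave out the most extreme genes at either end. The medians of the points are 0.18 and 0.016 in control replicates 1 and 2, and -0.092 and -0.083 in knockout replicates 1 and 2.

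The 4 arrays did not split evenly by genotype. Control replicate 1 gave the highest value of the 4 arrays in 41 of the 59 genes (69.5%), against 26.1% of all tested genes, control replicate 2 in 8, knockout replicate 2 in 10 and knockout replicate 1 in 0. The median deviation from the gene's own mean was 0.18 in control replicate 1 and 0.016 in control replicate 2, and -0.092 and -0.083 in knockout replicates 1 and 2. The median difference between the 2 controls was 0.18, about as large as the median difference between genotypes, while that between the 2 knockouts was -0.0072. Over all tested genes those 2 medians were -0.0016 and -0.019. Without control replicate 1, the median difference of the genes was -0.10 and 45 of 59 were below 0 (76.3%, against 49.5% of all tested genes). Without control replicate 2 it was -0.26. The arrays otherwise resembled each other, with correlations between 0.986 and 0.990 over all features and medians between 3.50 and 3.57, and no pair held identical values.

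The large subunit carries the peptidyl transferase centre, and its genes held the largest differences. Of 32 genes, 31 were tested; 29 were below 0, 21 had both knockout arrays below both controls and 0 had both above. The median difference was -0.20, and -0.14 without control replicate 1. Rpl10a, which encodes the protein of the L1 stalk, where empty transfer RNA leaves the ribosome, read 8.69 and 8.50 in the controls and 8.12 and 7.96 in the knockouts. The control mean was 8.60 ± 0.13 (SD, n = 2) and the knockout mean 8.04 ± 0.11 (SD, n = 2). Its groups did not overlap, and the spread within each genotype was small. Rpl10a fell by 0.55 (SE 0.11; knockout over control 0.681; limma Benjamini-Hochberg adjusted p = 0.0481). It was the third by size among the tested genes of the family, and its adjusted p lay close to the threshold: with any of the 4 arrays left out, the limma adjusted p ran from 0.0878 to 0.236.

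Rpl37 and Rpl3 had larger differences than Rpl10a and wider controls. Rpl37, a small zinc-binding protein of the large subunit, read 5.13 and 4.50 in the controls and 3.79 and 3.99 in the knockouts. The knockout values of Rpl37 lay close to the filter level of 3.53, so the size of its difference rests on values near background. Its difference was -0.92 (SE 0.22, limma adjusted p = 0.070), and -0.60 against control replicate 2 alone. Rpl3, which lies close to the peptidyl transferase centre, read 8.31 and 7.78 in the controls and 7.31 and 7.30 in the knockouts. Its difference was -0.74 (SE 0.18, limma adjusted p = 0.0761), and -0.47 against control replicate 2 alone. Its 2 dimmer features gave differences of -0.30 and 0.066, and the mean of its features gave -0.33. In both genes the genotypes did not overlap and control replicate 1 stood above control replicate 2 by more than 0.5 log2 units. These were also the only tested genes of the family whose group means differed by more than 1.5-fold, the cutoff named in the study's design, which Rpl10a did not reach; Rpl3 did so through its brightest feature only.

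Rpl13 and Rpl5 followed. Rpl13 read 10.53 and 10.13 in the controls and 9.98 and 9.70 in the knockouts (difference -0.49, SE 0.17, limma adjusted p = 0.153; -0.12 on its dimmer feature). Rpl5, which with Rpl11 can bind Mdm2, read 5.28 and 5.58 in the controls and 4.82 and 5.20 in the knockouts (difference -0.42, SE 0.17, limma adjusted p = 0.207). On a brighter feature that Rpl5 shares with its pseudogene Rpl5-ps2 the groups overlapped and the difference was -0.16 (limma adjusted p = 0.472). On the brightest single-symbol feature of each of the 2 genes the genotypes stayed apart by less than the distance between replicates of a genotype. On the dimmer feature of Rpl13 the groups overlapped. Rpl11 itself read 4.59 and 4.63 against 4.52 and 4.67, with overlapping groups and a difference of -0.0099 (SE 0.096, limma adjusted p = 0.966).

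A further group of large subunit genes had small differences with closely spaced replicates. Rpl32 read 10.54 and 10.51 in the controls and 10.15 and 10.28 in the knockouts (difference -0.31, SE 0.092, limma adjusted p = 0.114). Rpl41, which encodes the shortest ribosomal protein, read 11.60 and 11.61 against 11.38 and 11.35 (difference -0.24, SE 0.084, limma adjusted p = 0.159), and its 4 dimmer features gave differences from -0.33 to 0.015. Rpl22 read 4.51 and 4.50 against 4.27 and 4.26 (difference -0.24, SE 0.084, limma adjusted p = 0.157). On the brightest feature of these 3 genes both controls agreed within 0.05 log2 units, so that control replicate 1 did not stand apart there. The genotypes did not overlap on these features. This did not hold on every dimmer feature of Rpl41. The feature at a mean of 10.72 read 11.07 and 10.61 against 10.48 and 10.71, with control replicate 1 higher by 0.46 and overlapping groups. At the other end, Rpl4, which lines the exit tunnel of the nascent chain, read 12.01 and 11.98 against 11.94 and 11.97, a difference of -0.042 (SE 0.085, limma adjusted p = 0.802).

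Of the 2 large subunit genes with a difference above 0, Rpl34 read 6.95 and 7.14 against 6.98 and 7.17 (difference 0.028, SE 0.12), and its brighter feature, shared with Rpl34-ps1, gave -0.047. Rpl9 read 8.20 and 7.33 against 7.84 and 7.72 (difference 0.015, SE 0.28). The knockouts lay between the controls in Rpl9, whose 2 controls were further apart than those of any other tested gene of the family, and the difference was -0.42 without control replicate 2 and 0.45 without control replicate 1. The mean of its 2 features gave -0.20, and with each array centred on its median Rpl9 and Rpl34 read -0.027 and -0.014. Rpl27a, the only large subunit gene that missed the filter, read between 2.39 and 2.66.

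**Figure D2:**
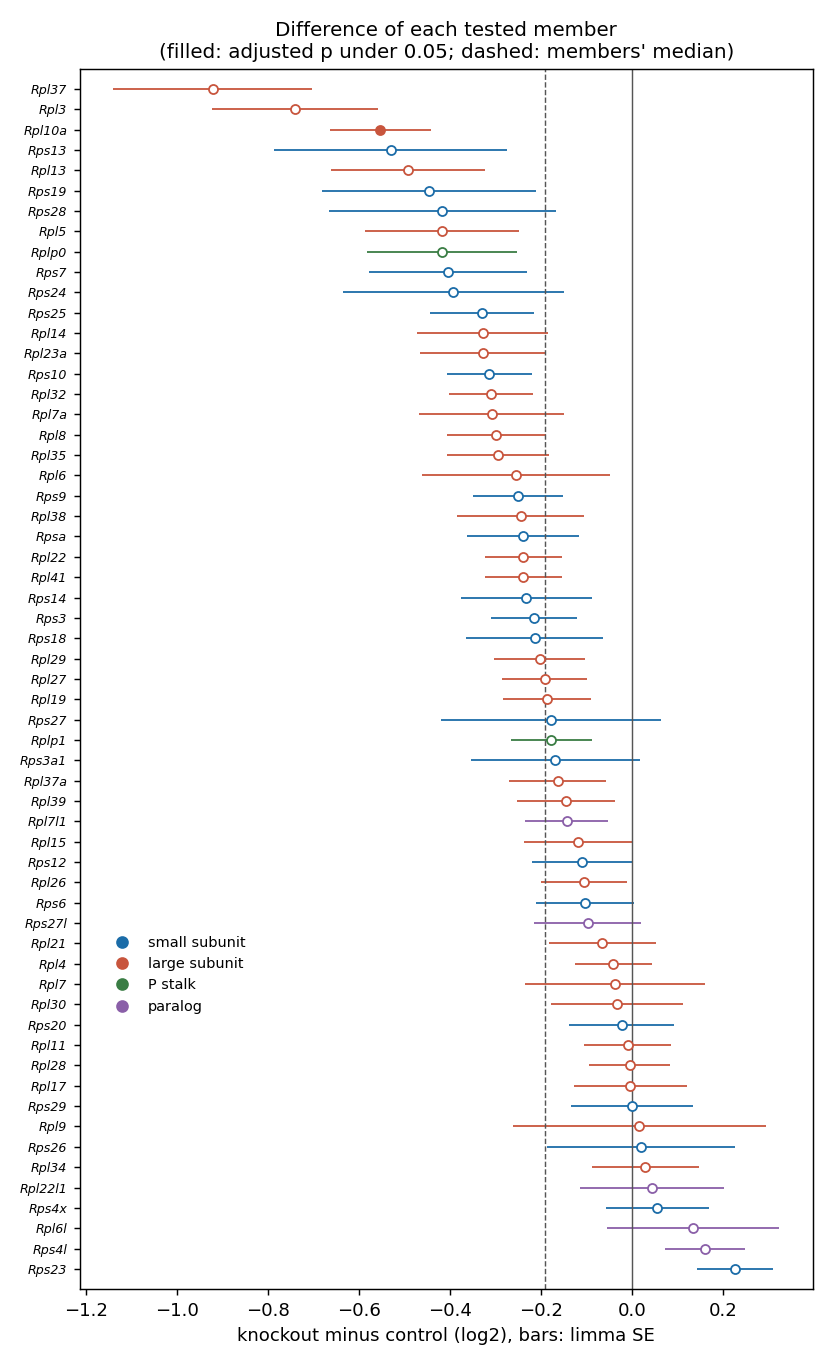
Knockout minus control in log2 units (x axis) for each of the 59 tested ribosomal protein genes (y axis), with limma's standard error as bars and colour by place in the ribosome. The dashed line is the median of -0.19; 51 points lie below 0, and the single filled point, Rpl10a, had an adjusted p under 0.05.

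The small subunit holds the decoding site and the path of the messenger RNA. Of its 23 genes, 21 were tested; 18 were below 0, 8 had both knockout arrays below both controls and 1 had both above, and 0 were called by limma, with 4 at an unadjusted p under 0.05. The median difference was -0.22 and became -0.038 without control replicate 1, with 14 of 21 below 0. Control replicate 1 was the highest array in 16 of the 21. The median over these genes thus rested on that array more than the median over the large subunit genes, which went from -0.20 to -0.14; the difference between the subunits was not tested.

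In the 3 small subunit genes with the largest differences, control replicate 1 stood well above the other arrays. Rps13 read 8.47 and 7.78 in the controls and 7.80 and 7.39 in the knockouts (difference -0.53, SE 0.26, limma adjusted p = 0.27). Rps19, the gene most often mutated in Diamond-Blackfan anaemia, read 9.34 and 8.61 against 8.53 and 8.53 (difference -0.45, SE 0.23, limma adjusted p = 0.303). Rps28 read 9.71 and 8.95 against 8.98 and 8.85 (difference -0.42, SE 0.25, limma adjusted p = 0.362; 0.051 on its dimmer feature). In Rps13 and Rps28 the groups overlapped, and in all 3 control replicate 2 lay nearer to the knockouts than to control replicate 1. Rps24, another Diamond-Blackfan gene, read 9.64 in control replicate 1 and 8.88, 8.85 and 8.88 in the other arrays. Against control replicate 2 alone, the differences were -0.19 for Rps13, -0.083 for Rps19, -0.033 for Rps28 and -0.014 for Rps24.

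Among other small subunit genes, Rps10, Rps25, Rps9, Rps7 and Rpsa were lower against either control, while Rps6 was not. Rps10, at the entry of the messenger channel, read 6.70 and 6.59 in the controls and 6.37 and 6.29 in the knockouts (difference -0.31, SE 0.093, limma adjusted p = 0.112). Rps25 read 7.12 and 6.95 against 6.80 and 6.60 (difference -0.33, SE 0.11, limma adjusted p = 0.156). Rps9 read 9.30 and 9.13 against 8.98 and 8.94 (difference -0.25, SE 0.099, limma adjusted p = 0.195). On its dimmer feature the difference was -0.83, with control replicate 1 above control replicate 2 by 0.83. On the brightest feature of these 3 genes the groups did not overlap. The differences against control replicate 2 alone were -0.26, -0.25 and -0.17 there. Rps7 read 4.96 and 4.93 against 4.79 and 4.29 (difference -0.41, SE 0.17, limma adjusted p = 0.226), with its knockouts further apart than its controls. Rpsa, the small subunit protein also known as a laminin receptor, read 10.20 and 9.90 against 9.82 and 9.80 (difference -0.24, SE 0.12, limma adjusted p = 0.293). Rps6, the S6 kinase substrate, read 11.55 in control replicate 1 and 11.32, 11.33 and 11.33 in the other 3 arrays (difference -0.10, SE 0.11, limma adjusted p = 0.604). The arrays measure RNA and say nothing of the phosphorylation of Rps6.

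Rps23, a protein of the decoding centre, had the largest difference in the other direction among the tested genes. It read 6.07 and 6.10 in the controls and 6.30 and 6.32 in the knockouts, with no overlap and a difference of 0.23 (SE 0.084, limma adjusted p = 0.178). Its replicates lay within 0.03 of each other in each genotype. Rps4x read 10.63 and 10.42 against 10.51 and 10.65 (difference 0.055, SE 0.11), and Rps26, at the exit of the messenger channel, read 10.14 and 9.51 against 9.83 and 9.86 (difference 0.020, SE 0.21). In both the groups overlapped, and Rps26 took a difference of -0.29 without control replicate 2 and -0.022 with each array centred on its median. Rps15 and Rps16 missed the filter on their single-symbol features. Their levels lay between 2.20 and 2.98 and between 3.21 and 3.46, with untested differences of 0.38 and -0.059. A brighter feature that Rps16 shares with Rps16-ps2 and another symbol read 10.33 and 10.14 against 10.09 and 10.10, lower in both knockouts (difference -0.15).

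**Figure D3:**
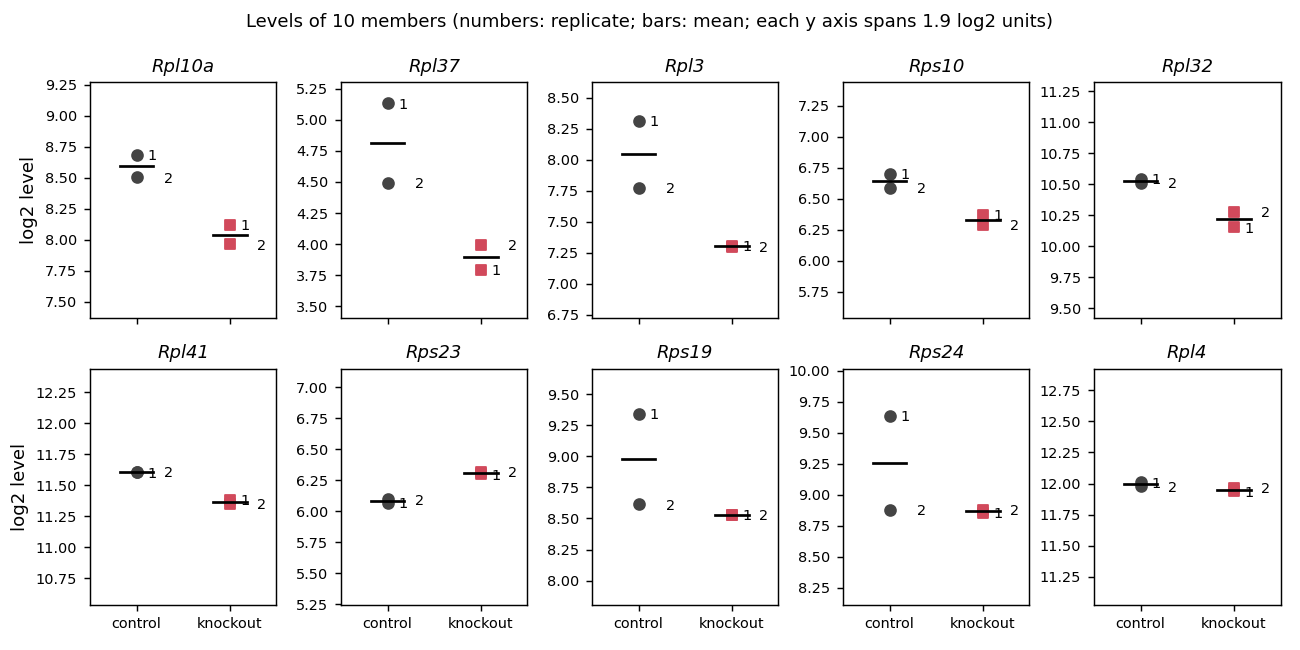
Level in log2 units (y axis) of 10 ribosomal protein genes by genotype (x axis); dots are control arrays, squares knockout arrays, numbers the replicate and bars the mean of 2, and each axis spans the same 1.9 log2 units. The genotypes are apart with close replicates in Rpl41 and Rps23, while Rps19 and Rps24 have control replicate 1 apart from the other arrays, at 9.34 and 9.64.

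The P stalk is the flexible arm of the large subunit that recruits elongation factors, built from Rplp0 with Rplp1 and Rplp2. Rplp0 read 8.67 and 8.20 in the controls and 8.03 and 8.01 in the knockouts (difference -0.42, SE 0.16, limma adjusted p = 0.197). Rplp1 read 11.04 and 11.14 against 10.91 and 10.92 (difference -0.18, SE 0.089, limma adjusted p = 0.283). In both genes the groups did not overlap on these features, while a dimmer feature of each went the other way, with differences of 0.10 for Rplp0 and 0.25 for Rplp1 and overlapping groups. Rplp2 missed the filter through its single-symbol feature, which read between 2.78 and 3.50, higher in both knockouts, with an untested difference of 0.50. A brighter feature that it shares with the small nucleolar RNA Snora52 read 7.80 and 7.86 against 7.51 and 7.72, lower in both knockouts.

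Paralogs are encoded by separate genes and can replace the usual protein in some tissues. Of the 9, 5 were tested, 0 were called by limma in either direction and 0 had an unadjusted p under 0.05. Their median difference was 0.044, and 2 of the 5 were below 0. Rps4l read 5.75 and 5.81 in the controls and 5.91 and 5.96 in the knockouts, without overlap (difference 0.16, SE 0.088, limma adjusted p = 0.324). Rpl6l read 10.06 and 9.55 against 9.81 and 10.06 (difference 0.13, SE 0.19). Rpl22l1 read 5.67 and 6.10 against 5.98 and 5.88 (difference 0.044, SE 0.16). The groups overlapped in Rpl6l and Rpl22l1, and each difference changed sign without 1 of the controls, to -0.12 in Rpl6l without control replicate 2 and to -0.17 in Rpl22l1 without control replicate 1. Rpl7l1 read 7.06 and 6.95 against 6.86 and 6.86 (difference -0.14, SE 0.090), and Rps27l read 6.43 and 6.15 against 6.21 and 6.18 (difference -0.098, SE 0.12). Rpl3l, of heart and skeletal muscle, Rpl10l and Rpl39l, both known from testis, and Rpl32l missed the filter, with mean levels of 2.78, 2.25, 3.53 and 3.24; that of Rpl39l lay just under it.

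Of 7 pairs of a paralog and its core gene, 6 had a value for both. The log2 ratio of paralog to core gene was set between genotypes with an exact permutation test, which with 2 arrays against 2 cannot give a p below 0.333. For Rpl22l1 over Rpl22 the ratio was 1.16 and 1.60 in the controls and 1.71 and 1.62 in the knockouts, a change of 0.28 (exact p = 0.333, 0.666 after Benjamini-Hochberg adjustment over the 6 pairs). The ratio was higher in both knockouts by little over control replicate 2, and the change was 0.063 without control replicate 1. For Rps4l over Rps4x the change was 0.10 (exact p = 0.667), for Rps27l over Rps27 0.081 (exact p = 1.0) and for Rpl7l1 over Rpl7 -0.11 (exact p = 1.0), with overlapping groups in each. In the other 2 pairs, Rpl3l over Rpl3 and Rpl39l over Rpl39, the paralog missed the filter, so that the changes of 0.89 and 0.27 are in ratios of a value near background; with the mean of each gene's features the first was 0.47.

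Differences below 0 were not limited to bright or dim features. Among the 12 tested genes with a mean level under 5, the median difference was -0.15, against 0.015 in other tested genes at that level. It was -0.14 in the 15 genes from 5 to 8, against -0.0013, -0.28 in the 16 from 8 to 10, against 0.014, and -0.18 in the 16 at 10 or above, against 0.010. The gap between the 2 controls was uneven across these bands, with a median of 0.43 in the genes from 8 to 10 and 0.078 in those under 5. Without control replicate 1 the medians were -0.21, -0.10, -0.11 and -0.077 from the dimmest band to the brightest.

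**Figure D4:**
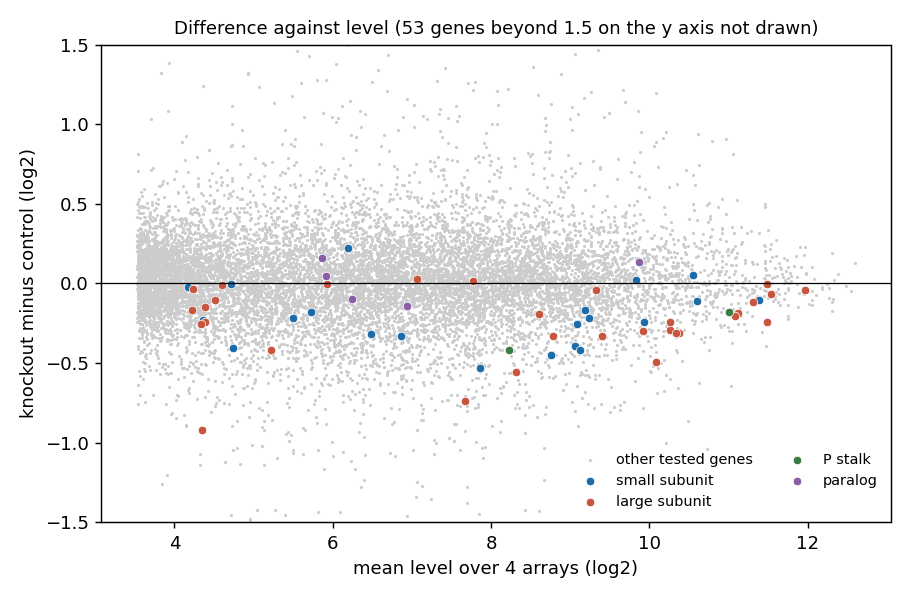
Knockout minus control (y axis, log2 units) against the mean level over the 4 arrays (x axis, log2 units) for ribosomal protein genes (coloured) and the other tested genes (grey); 53 genes beyond 1.5 in either direction are not drawn. Coloured points lie mostly below 0 at every level, with medians of -0.15, -0.14, -0.28 and -0.18 from the dimmest to the brightest band.

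Ribosomal protein genes have many processed pseudogenes of nearly the same sequence, so probes of a gene and of its copies can read each other's RNA, and the values of single genes are uncertain to that extent. Of the 67 genes, 25 had more than 1 single-symbol feature. Leaving out 7 features that repeated the values of another feature of their gene, 28 further features reached the filter level; 21 of these had a difference below 0, with a median of -0.13, and 21 were higher on control replicate 1 than on control replicate 2. A list of 77 core ribosomal protein genes was also looked up among features annotated to several symbols. Of these, 58 had a feature of their own and 12 had only a shared feature; the others were not analysed here. In the 12 with a shared feature only, which include Rpl12, Rpl23, Rpl36 and Rps21, 11 differences were below 0 and the median was -0.15. They ran from -0.38 in Rpl36 to 0.23 in Rpl24, whose feature is shared with Zbtb11, and control replicate 1 was the highest array in 8 of the 12. For 10 of the 67 genes, the shared feature was brighter than the gene's own. The difference on the shared feature was below 0 in every one of these genes, also in Rpl34 and Rplp2, whose own feature gave a difference above 0. In size it was larger than on the gene's own feature for most and smaller for others. Rpl26 read 10.71 and 10.52 in the controls and 10.21 and 10.38 in the knockouts on its shared feature, a difference of -0.32, beside -0.11 on its own, whereas Rpl5 gave -0.16 beside -0.42.

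The other genes of the translation machinery were read from lists written from textbook knowledge. The factors that build ribosomes had the largest median of the translation lists. Of 48 tested ribosome biogenesis genes, 12 were called lower by limma and 0 higher, against 3.49% and 3.3% of all tested genes. All 48 differences were below 0. Both knockout arrays lay below both controls in 43 (89.6%), against 26.5% of all tested genes. The median was -0.31, and it was also -0.31 without control replicate 1, which was nearly level with control replicate 2 in this list (median gap 0.019). Nop2, which methylates ribosomal RNA, read 8.69 and 8.59 in the controls and 7.95 and 7.93 in the knockouts (difference -0.70, SE 0.090, limma adjusted p = 0.0169). Gnl3, the nucleolar protein nucleostemin, read 8.51 and 8.50 against 7.96 and 7.80 (difference -0.62, SE 0.098, limma adjusted p = 0.0284). Nop16 and Rrp12, both nucleolar, fell by 0.62 and 0.61. In all 4 the genotypes did not overlap.

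Of 14 tested chaperones and importers of ribosomal proteins, 2 were called lower by limma and 0 higher. Ipo4, a nuclear import receptor, fell by 0.56 (limma adjusted p = 0.0282) and Heatr3, which carries Rpl5 and Rpl11, fell by 0.46 (limma adjusted p = 0.0492). The list's median was -0.14. Of 67 tested mitochondrial ribosomal protein genes, which belong to a separate ribosome, 2 were called lower, Mrps28 by 0.66 and Mrpl52 by 0.47, and 0 higher, with a median of -0.13. Among 35 initiation factors 1 was called lower, Eif3b by 0.45, and the median was -0.13. Among 12 elongation and termination genes 1 was called lower, the aminoacyl-tRNA synthetase cofactor Eef1e1 by 0.57, and the median was -0.11, and -0.064 without control replicate 1. The called shares of the mitochondrial and initiation lists lay below the 3.49% called lower over all tested genes. Those of the chaperone and elongation lists lay above it, but rest on 2 and 1 calls in short lists. Differences below 0 were not particular to the cytosolic ribosomal protein genes, where their share was 86.4%. The share was 100% in the ribosome biogenesis list and 78.6% in the chaperone list. It was 82.1% in the mitochondrial, 80.0% in the initiation and 83.3% in the elongation list. With any of the 4 arrays left out, 0 genes of these 5 lists passed limma's threshold.

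Of 18 tested regulators of mTOR and of terminal oligopyrimidine messengers, limma called 0 in either direction and 4 had an unadjusted p under 0.05; the median was -0.065, and -0.024 without control replicate 1. Unassembled Rpl5 and Rpl11 are known to bind Mdm2 and so to stabilise p53, and a list of Mdm2, p53 and p53 target genes was read for that reason. Of its 14 tested genes, 2 were called higher by limma and 0 lower, against 3.3% and 3.49% of all tested genes. The 2 were the p53 targets Pmaip1, higher by 0.88 (limma adjusted p = 0.0349), and Trp53inp1, by 0.77 (limma adjusted p = 0.015). The list's median was 0.14, and 3 of 14 differences were below 0. The part of the ribosomal protein genes in these differences was not tested. With 1 array left out, 0 genes of this list were called, except without control replicate 2, where 1 was. Fau, whose protein is cleaved to release the small subunit protein Rps30, read 9.68 and 9.48 against 9.43 and 9.56 (difference -0.082, SE 0.11, limma adjusted p = 0.70).

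**Figure D5:**
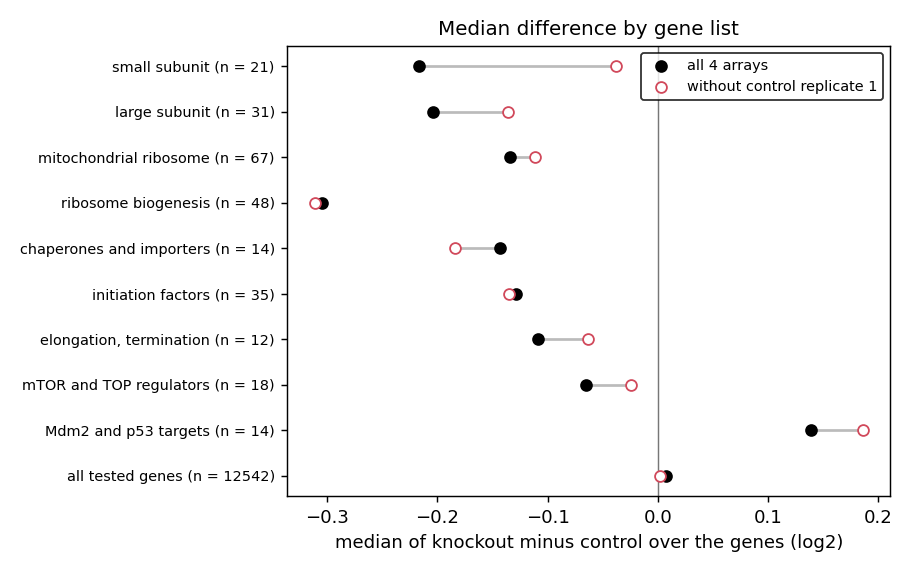
Median of knockout minus control in log2 units (x axis) over the tested genes of each list (y axis), with all 4 arrays (filled) and without control replicate 1 (open). The small subunit moves from -0.22 to -0.038, whereas ribosome biogenesis is at -0.31 in both.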

How the data were processed

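The authors deposited log2 values made by robust multi-array averaging, per the series' design text, and oligo and RMA are named, with no version, in the submitters' processing notes; the genome build is not given in the sources used here. The table holds 41345 features on 4 arrays, and array number limits the precision. Features were named through the platform annotation, in which 23521 had 1 symbol, 1814 several and 16010 none. Genotypes came from the labels. For 22180 genes the brightest single-symbol feature was taken, and 12542 with a mean of at least 3.53 were fitted with limma 3.58.1 in R 4.3.3 (lmFit, eBayes, 2 residual and 3.51 prior degrees of freedom), without a block, because same-numbered arrays did not deviate together (correlation -0.0357). Calls used a Benjamini-Hochberg adjusted p under 0.05 over all tested genes, and tests looked in both directions. The fit was tested on simulated data.

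Genes are named by rule: called genes of the family, the 8 largest differences in each direction, paralog pairs, Rplp0, Rplp1, Rplp2, Rpsa, Rps6, Fau, Ppp2ca, genes under the filter and up to 4 called genes of each other list. Rpl4, Rpl11, Rpl32, Rpl41, Rps7, Rps9, Rps10, Rps24, Rps25, Adgre1 and the shared features were added to the text with their values known. Rpl35 and Rpl7a also lie outside the rule and are shown for their repeated TCT-like matches. The family and the lists were chosen with earlier results of these data known. Alternatives covered the filter, normalization, feature choice, each array left out, the replicate block, the variance model, array weights and shared features.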

Additional observations from a re-analysis of the deposited data

How the results depend on the processing

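The call of Rpl10a depended on the setting. Of the ribosomal protein genes, 1 was called lower, and 0 without a filter, with all features as units, with the replicate number as a replicate block or with robust eBayes. The count was 4 with the stricter filter at 5.74 (Rpl10a, Rpl3, Rpl32, Rps10), 5 with an intensity trend in the prior variance (Rpl10a, Rpl3, Rpl32, Rpl37, Rpl41), 2 with arrays centred on the family's own median (Rpl3, Rpl37) and from 0 to 2 with each array left out, where the 2 were Rpl3 and Rpl37 without control replicate 2. It was 1 under median centring, array weights, quantile normalization, averaged features and, chosen after seeing the data, shared features. The count called higher was 0 under every setting run. Over all tested genes, the 852 calls became 333 without a filter, 1487 with the stricter filter, 1584 with the trend, 312 with the replicate block, 1586 with centring on the family's median and from 96 to 174 with each array left out. Of these calls, 438 were lower and 414 higher; median centring gave 576 and 375, and centring on the family's median 274 and 1312, with the median of all genes then at 0.17.

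The median difference of -0.19 was -0.033 with centring on the family's median, which removes the shared shift by construction, and ran from -0.26 to -0.10 with each array left out. Below 0 were 45 to 54 of the 59 genes over quantile normalization, median centring, averaged features and each array left out. Both knockouts lay below both controls in 27 to 34 of 59 over quantile normalization, median centring and averaged features. With an array left out this second count cannot fall, because fewer arrays have to lie apart, so it is not compared. The count below 0 was 35 of 59 with centring on the family's median, 79 of 94 with features as units and 66 of 74 with shared features. With each array left out, differences ran from -0.17 to 0.26 for Rpl22l1, -0.12 to 0.39 for Rpl6l, -0.42 to 0.45 for Rpl9 and -0.29 to 0.33 for Rps26. Ratio changes ran from -0.33 to 0.12 for Rpl7l1 over Rpl7, -0.30 to 0.46 for Rps27l over Rps27 and -0.037 to 0.24 for Rps4l over Rps4x; the cause was not tested. With 1 array left in a genotype, limma assumes that it varies like the other genotype.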
